A study of Homo sapiens with 43 samples.

Results

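Small nucleolar RNAs (snoRNAs) guide the chemical modification and cleavage of ribosomal RNA, and in human cells most of them are not transcribed on their own. They lie in the introns of host genes and are trimmed out of the excised introns, while the exons are spliced into the host RNA. Box C/D snoRNAs direct ribose methylation and box H/ACA snoRNAs direct pseudouridylation. Many hosts encode ribosomal proteins or translation factors, and others are non-coding transcripts whose exons turn over quickly.

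The 7 host genes described here are RPS13, GAS5, SNHG1, SNHG5, NCL, HSPA8 and EIF4A2. Their members were the peaks that overlapped, by at least 1 nt on the same strand, the hg19 span given for each gene. These were 2660 of the 1430241 peaks in all 25 lists, or 0.186%. No peak crossed the end of a span, and none lay within 100 nt outside it. The genes were selected on the folds and numbers of their peaks in these same lists, so those values are a description and carry no test.

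The name of the set held up against RefSeq (GRCh38.p14), where all 7 genes matched and together held 35 snoRNAs. There were 11 inside GAS5, 9 inside SNHG1, 5 inside EIF4A2, 3 each inside NCL and HSPA8, and 2 each inside RPS13 and SNHG5. Of the 35, 28 carried box C/D names and 6 box H/ACA names. EIF4A2 also held 1 microRNA, MIR1248. RefSeq draws some genes with other boundaries than the hg19 spans, with 5145 nt against 4088 nt for GAS5, 10954 nt against 9747 nt for NCL and 4974 nt against 5739 nt for HSPA8, so these counts and the start windows given later refer to the RefSeq genes. No hg19 annotation was used, so peaks are placed by distance from the 5′ end of the gene and are not assigned to exons, introns or snoRNAs.

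The peaks came from eCLIP, in which ultraviolet light crosslinks proteins to RNA in living cells, the protein is immunoprecipitated and its RNA is sequenced beside an input sample from the same gel region. All cells were HEK293T, a human embryonic kidney line. The tagged libraries were LIN28 V5, FMR1 FLAG, DGCR8 FLAG, RBFOX2 V5, HNRNPC V5 isoform 1 and HNRNPC V5 isoform 2, precipitated through the tag integrated into the gene of the RNA-binding protein (RBP), and 5 wild-type libraries used antibodies against LIN28, FMR1, DGCR8, RBFOX2 and HNRNPC themselves. The other 14 libraries carry the names FLAG-only or V5-only; here the same tag antibodies were used and 7 overlapping gel ranges of 75 kDa were sequenced separately. The labels list 1 input per gel range, so the FLAG-only and V5-only libraries of a range share it and their folds are not independent. No condition was sequenced more than once, so no replicate error exists, and the intervals given cover counting error over peaks only. The labels do not say whether a tagged line was 1 clone or whether the FLAG-only and V5-only cells carried any tag.

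Each deposited list gave a −log10 p and a log2 fold over the size-matched input per peak, both the authors' own. Peaks with both values of at least 3, which is 8-fold over input, are called significant. The lowest host fold inside that limit was 3.0038 on the log2 scale and the highest outside it was 2.9958. Lists held between 25723 and 100860 called peaks and between 375 and 17354 significant ones. The depth of each library in reads is unknown, which limits any comparison of counts between lists.

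RPS13 encodes a protein of the small ribosomal subunit and carried the strongest LIN28 sites of all. LIN28 is an RNA-binding protein best known for blocking the maturation of let-7 microRNAs, and it also binds many mRNAs. The LIN28 V5 library had 4 significant peaks in RPS13, and the LIN28 wild-type library had 5. These were ranks 1 to 4 of the 7780 significant peaks of the LIN28 V5 list and ranks 1 to 5 of the 2020 of the wild-type list. The next peak outside RPS13 had a log2 fold of 9.05 in LIN28 V5 and 8.46 in LIN28 wild type, where the medians of all significant peaks were 3.95 and 3.91.

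The LIN28 peaks fell at 2 places. The one nearer the 5′ end spanned chr11:17098715-17098755 (hg19, minus strand). It was split into 3 adjoining peaks with log2 folds of 10.20, 10.03 and 9.81 in LIN28 V5, and into 4 with folds of 9.71, 9.75, 9.60 and 9.44 in LIN28 wild type. The one farther on spanned chr11:17097137-17097170 (hg19, minus strand). There the log2 fold was 10.48 in LIN28 V5 and 9.54 in LIN28 wild type. Neither LIN28 list had any other called peak in RPS13.

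The same 2 places were significant in 1 further library. DGCR8 binds primary microRNA hairpins with the nuclease DROSHA. DGCR8 wild type had a log2 fold of 4.03 at the nearer place and 4.06 at the farther, ranks 891 and 887 of 1375, while DGCR8 FLAG had no called peak at either. RBFOX2 wild type had called peaks of 2.33 and 2.42, below the limit, and RBFOX2 V5 had none. FMR1 FLAG had 1.29 and 2.14, and FMR1 wild type had 1.10 at the nearer place only. None of the 3 HNRNPC libraries had a peak at either place.

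The tag-only libraries had called peaks there too, none of them significant. The nearer place was called in 9 of 14 lists with log2 folds between 0.72 and 2.16, and the farther in 8 with folds between 0.39 and 2.83. Counting all libraries, the nearer place was called in 15 lists, the farther in 13 and both in 12. The edges that face each other were shared as well. Leaving out the LIN28 lists, which define the edges, the nearer place ended within 2 nt of the LIN28 edge in 9 of 13 lists, and the farther place in 7 of 11.

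**Figure D1:**
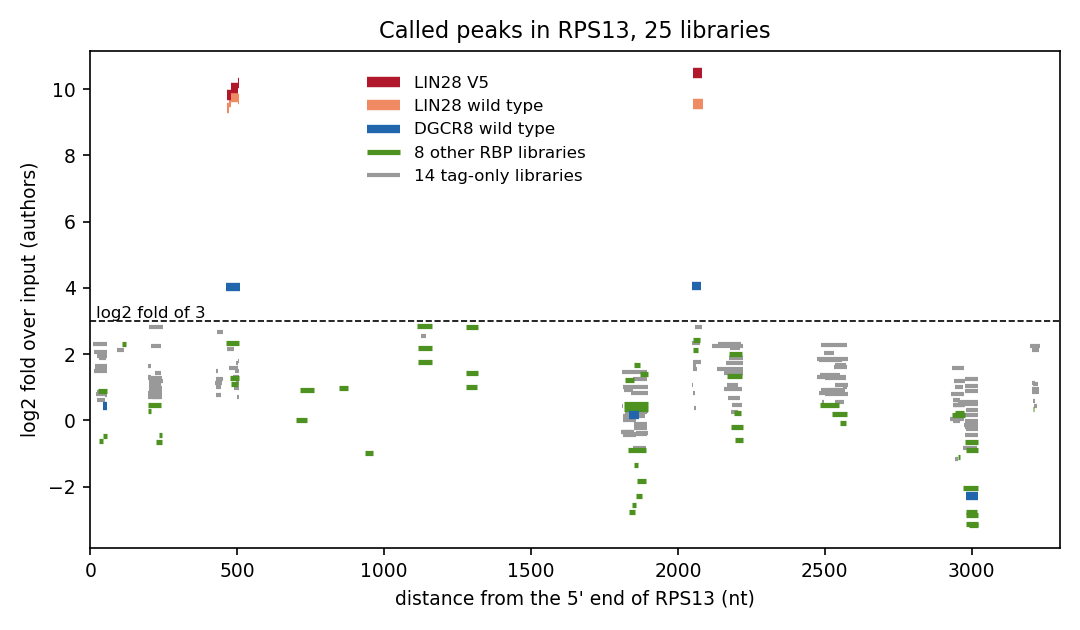
Called peaks in RPS13 in 25 libraries, each drawn as a bar from its start to its end (x axis, distance from the 5′ end of the gene in nt) at the authors' log2 fold over input (y axis), with the limit of 3 as a dashed line. Both LIN28 libraries sit between 9.44 and 10.48 at 2 places, DGCR8 wild type sits near 4 at the same places, and no tag-only peak reaches 3.

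The facing edges of the LIN28 peaks were 1544 nt apart in hg19 in both LIN28 libraries. In GENCODE v29, which is on GRCh38, the third of the 5 introns of transcript RPS13-201 is 1544 nt long, and the other 4 are 141, 182, 290 and 630 nt. This comparison of lengths was made after the peaks had been seen, carries no position from one build to the other, and does not place the peaks. The spliced transcript on either side of that intron is shown over as many bases as the LIN28 peaks spanned, 41 before and 34 after, because the intron between them has the length of the gap.
RPS13-201 before intron 3: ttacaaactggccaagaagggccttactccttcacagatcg
RPS13-201 after intron 3: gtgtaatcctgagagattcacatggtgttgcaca
The letters GGAG, a motif often found at LIN28 sites, were searched on the transcript strand and would have been capitals. They occur 0 times in this joined window. They occur in 43.6% of the 545200 windows of the same size around exon junctions of GENCODE protein-coding transcripts, many of which share junctions.

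Away from these places RPS13 had 51 called peaks in the RBP libraries and 124 in the tag-only libraries, none significant. Negative folds, meaning fewer reads in the immunoprecipitate than in the input after scaling, made up 23 of the 51 and 18 of the 124. A block at 2982 nt from the 5′ end was called in 8 RBP lists, all negative, with a median of −2.52, and in all 14 tag-only lists with a median of 0.07. A second block at 1848 nt was called in 9 RBP lists with a median of −0.89 and in all 14 tag-only lists with a median of 0.26. In this second block 5 of the 9 RBP lists were negative, and the RBP libraries other than HNRNPC had a median of 0.25.

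RPS13 hosts SNORD14A and SNORD14B, and HSPA8 hosts SNORD14C, SNORD14D and SNORD14E. These are copies of 1 box C/D snoRNA family, shown here because 2 of the hosts carry copies of it. How the authors' mapping treated reads that match more than 1 copy is not stated, and its part in these peaks was not tested. Box C was searched as TGATGA and box D as CTGA, on the snoRNA strand, and capitals mark the first box C and the last box D.
SNORD14A: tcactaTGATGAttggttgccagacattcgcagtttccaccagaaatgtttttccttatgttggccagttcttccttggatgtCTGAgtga
SNORD14B: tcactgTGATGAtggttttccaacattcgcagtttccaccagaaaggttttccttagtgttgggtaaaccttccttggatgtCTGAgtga
SNORD14C: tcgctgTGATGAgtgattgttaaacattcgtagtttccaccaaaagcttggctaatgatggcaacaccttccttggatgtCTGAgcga
SNORD14D: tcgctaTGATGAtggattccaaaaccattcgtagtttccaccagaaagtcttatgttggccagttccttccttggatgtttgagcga
SNORD14E: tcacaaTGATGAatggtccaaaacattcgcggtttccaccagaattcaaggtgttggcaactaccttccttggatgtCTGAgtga
All 5 hold box C and 4 hold box D in these letters. Of the 288 SNORD transcripts in GENCODE v29, 76.4% hold both in this order, against 0.67% of the 149 SNORA transcripts. The RPS13 pair was 85.9% identical, the 3 HSPA8 copies were 75.6% to 79.1% identical to each other, and copies of different hosts were 76.1% to 81.7% identical. Whether any peak lies in a snoRNA was not tested.

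HSPA8 encodes the constitutive heat shock protein HSC70, and EIF4A2 encodes an RNA helicase of the translation initiation machinery. Both held significant peaks of LIN28 and of FMR1, a ribosome-associated protein that represses the translation of its target mRNAs. HSPA8 held 11 significant of 29 called peaks in FMR1 FLAG and 1 of 16 in FMR1 wild type. In LIN28 V5 it held 5 of 25, and in LIN28 wild type 0 of 8. The significant shares of these whole lists were 17.2%, 5.23%, 10.6% and 4.73%, in that order, so counts do not compare the antibodies. The strongest FMR1 FLAG peak of HSPA8, chr11:122931380-122931430, had a log2 fold of 4.16. The single FMR1 wild-type peak, chr11:122930827-122930859 with a fold of 3.29, lay under an FMR1 FLAG peak of 4.10, and FLAG-only 175-250 kDa had a significant peak of 3.12 over it. The strongest LIN28 V5 peak, chr11:122931372-122931398, had a fold of 3.94 and overlapped the strongest FMR1 FLAG peak. All 17 significant RBP peaks of HSPA8 lay between 2495 and 4746 nt from its 5′ end.

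EIF4A2 held 6 significant of 29 called peaks in LIN28 V5 and 2 of 12 in LIN28 wild type. Its strongest peak in both libraries began at chr3:186503953 (plus strand), with a log2 fold of 5.14 in LIN28 V5 and 4.59 in LIN28 wild type. No other of the 25 lists had a called peak over the 30 nt of the LIN28 V5 peak. A second LIN28 site upstream, chr3:186503783-186503832 in LIN28 V5 with a fold of 4.63, was also significant in LIN28 wild type at 3.59, in FMR1 FLAG at 3.49 and in FLAG-only 125-200 kDa at 3.89. FMR1 FLAG had 2 significant of 24 called peaks in EIF4A2 and FMR1 wild type had 0 of 13. DGCR8 FLAG had a single peak of 3.48, close to the p limit, and DGCR8 wild type had none.

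Some host peaks of LIN28 V5 and FMR1 FLAG overlapped. Of the 22 significant LIN28 V5 host peaks, 9 overlapped a significant FMR1 FLAG peak (40.9%, Wilson interval 23.3% to 61.3%), against 13.3% over the whole LIN28 V5 list. In the other direction, 6 of the 23 FMR1 FLAG host peaks overlapped a LIN28 V5 peak (26.1%, interval 12.5% to 46.5%), against 5.97% of that list. The 9 lay in HSPA8 (4), EIF4A2 (3) and NCL (2). Neighbouring peaks of a gene are not independent, so these intervals are too narrow. The genes were also selected on such peaks, so the shares carry no test.

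NCL encodes nucleolin, an abundant nucleolar RNA-binding protein. It held 10 significant of 44 called peaks in FMR1 FLAG and 2 of 37 in FMR1 wild type. In LIN28 V5 it held 5 of 35, and in LIN28 wild type 0 of 27. The strongest FMR1 FLAG peak had a log2 fold of 4.26 but was 4 nt wide. A stretch of 3 adjoining FMR1 FLAG peaks with folds of 3.68, 3.94 and 3.58 ended at chr2:232320833, where FMR1 wild type had a peak of 3.15. FLAG-only 125-200 kDa and FLAG-only 75-150 kDa were significant over the same place, at 4.38 and 3.49. The 5 LIN28 V5 peaks adjoined each other from chr2:232322358 to chr2:232322511 (minus strand), with the highest fold, 4.83, in the second, and all 5 overlapped a significant tag-only peak. Near the 3′ end of NCL, at 9641 nt, HNRNPC V5 isoform 1 had a peak with a fold of 4.60, rank 7 of its 375, over an HNRNPC wild-type peak of 3.44, rank 973 of 1357. HNRNPC is a nuclear protein that binds uridine tracts in nascent RNA. No tag-only peak was significant at that place.

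The 3 non-coding hosts gave few significant RBP peaks, and also had few called ones. GAS5 had 4 of 145 (2.76%, interval 1.08% to 6.88%) and SNHG5 2 of 44 (4.55%, interval 1.26% to 15.1%). Both intervals hold the 6.69% of the pooled RBP lists. SNHG1 had 1 of 104 (0.96%, interval 0.17% to 5.25%). The genes were selected on such counts, so these shares carry no test. GAS5 and SNHG1 are spliced transcripts whose known output is their snoRNAs, and GAS5 RNA also accumulates when translation is blocked. In GAS5, 3 significant peaks came from HNRNPC wild type and 1 from DGCR8 FLAG. The strongest, chr1:173836596-173836654 (minus strand) with a log2 fold of 4.66, ranked 68 of 1357 in HNRNPC wild type. Over that peak HNRNPC V5 isoform 1 had a fold of 1.772 and isoform 2 one of 1.895. Their highest folds in GAS5, 2.09 in isoform 1 and 2.30 in isoform 2, lay at another place. None of their GAS5 peaks was significant. The highest significant GAS5 fold in any list was a tag-only one, 5.37 in FLAG-only 175-250 kDa at chr1:173834781-173834807. SNHG1 held 1 significant RBP peak, chr11:62623227-62623274 in HNRNPC wild type, 112 nt from the 5′ end, with a fold of 3.77, and V5-only 125-200 kDa had a peak of 3.48 over it. SNHG5 held 2 significant peaks, both in LIN28 V5, with folds of 3.20 and 3.07. LIN28 wild type had 3 called peaks in SNHG5, the highest at 0.94.

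**Figure D2:**
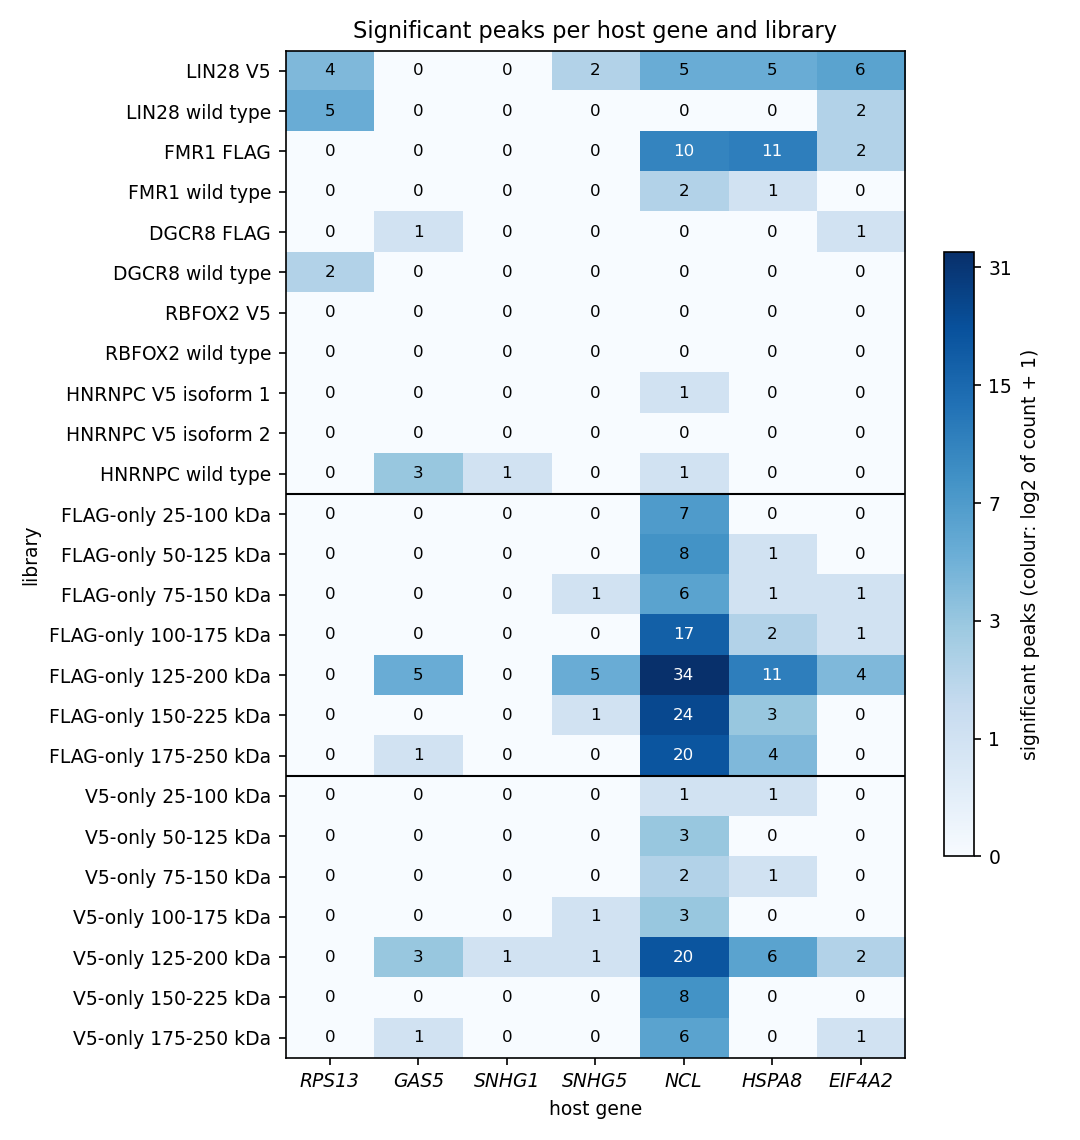
Number of significant peaks in each host gene (columns) in each library (rows; RBP libraries above, FLAG-only and V5-only libraries below the lines), printed in each cell and shaded by the log2 of the count plus 1. RPS13 has counts in LIN28 V5 (4), LIN28 wild type (5) and DGCR8 wild type (2) and 0 in every tag-only library, while NCL has counts in all 14 tag-only libraries.

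Set against their own lists, the hosts were ordinary in most RBP libraries. In LIN28 V5, 22 of 132 called host peaks were significant (16.7%), against 10.6% of the whole list, and in LIN28 wild type 7 of 78 (8.97%), against 4.73%. FMR1 FLAG had 23 of 132 (17.4%), against 17.2%, and FMR1 wild type had 3 of 98 (3.06%), against 5.23%. DGCR8 FLAG had 2 of 77 (2.60%), against 1.78%, and DGCR8 wild type had 2 of 59 (3.39%), against 4.16%. The counts of both DGCR8 libraries are too small to place them above or below their lists.

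RBFOX2, a splicing factor that binds UGCAUG, had no significant peak in any host. A count of 0 is read here as allowing 3 peaks, and the Wilson upper limit is given beside it. RBFOX2 V5 had 0 of 91, which allows up to 3.30% (Wilson limit 4.05%), against 4% of the list, so it cannot be placed below its list. RBFOX2 wild type had 0 of 71, which allows up to 4.23% (Wilson limit 5.13%), against 7.03%. HNRNPC V5 isoform 1 had 1 of 80 (1.25%), against 0.76%. HNRNPC V5 isoform 2 had 0 of 81, which allows up to 3.70% (Wilson limit 4.53%), against 1.97%, and HNRNPC wild type had 5 of 78 (6.41%), against 2.15%. Over the 11 RBP libraries, 65 of 977 called host peaks were significant, or 6.65% (interval 5.25% to 8.39%), against 6.69% of the pooled lists. At this limit the hosts as a set were at the background of the RBP lists, but the call depended on the limit. At a −log10 p limit of 5 the hosts had 59 of 977 (6.04%, interval 4.71% to 7.71%), against 4.35% of the pooled lists, and at a log2 fold limit of 2 they had 146 of 977 (14.9%, interval 12.8% to 17.3%), against 10.6%.

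The recurrence of wild-type host sites with the tag did not depart from the whole lists beyond counting error in any pair. All 7 LIN28 wild-type host peaks were overlapped by a significant LIN28 V5 peak (interval 64.6% to 100%), against 81.8% of that whole list, and 5 of the 7 were the RPS13 peaks. FMR1 FLAG overlapped 2 of the 3 FMR1 wild-type host peaks, against 67.3% of the list. DGCR8 FLAG overlapped 0 of 2, against 18.9%. HNRNPC V5 isoform 1 overlapped 1 of 5, the NCL site, against 6.71%, and HNRNPC V5 isoform 2 overlapped 0 of 5, against 11.3%. Conversely, 7 of the 22 LIN28 V5 host peaks lay at wild-type peaks, against 28.8% of that list, and 2 of the 23 FMR1 FLAG host peaks did, against 13.2%. Since the lists differ in length, these shares do not compare the antibodies.

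The tag-only libraries were dominated by NCL. FLAG-only lists held 7, 9, 9, 20, 59, 28 and 25 significant host peaks from the lowest gel range to the highest, and NCL accounted for 7, 8, 6, 17, 34, 24 and 20 of them. V5-only lists held 2, 3, 3, 4, 33, 8 and 8, and NCL accounted for 1, 3, 2, 3, 20, 8 and 6. In both antibodies the 125-200 kDa range was highest. FLAG-only exceeded V5-only in all 7 ranges, but the FLAG-only lists also hold more significant peaks in every range: as a share of each list's significant peaks the difference averaged 0.036 percentage points (SD 0.169 over 7 ranges, which overlap and are not replicates).

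**Figure D3:**
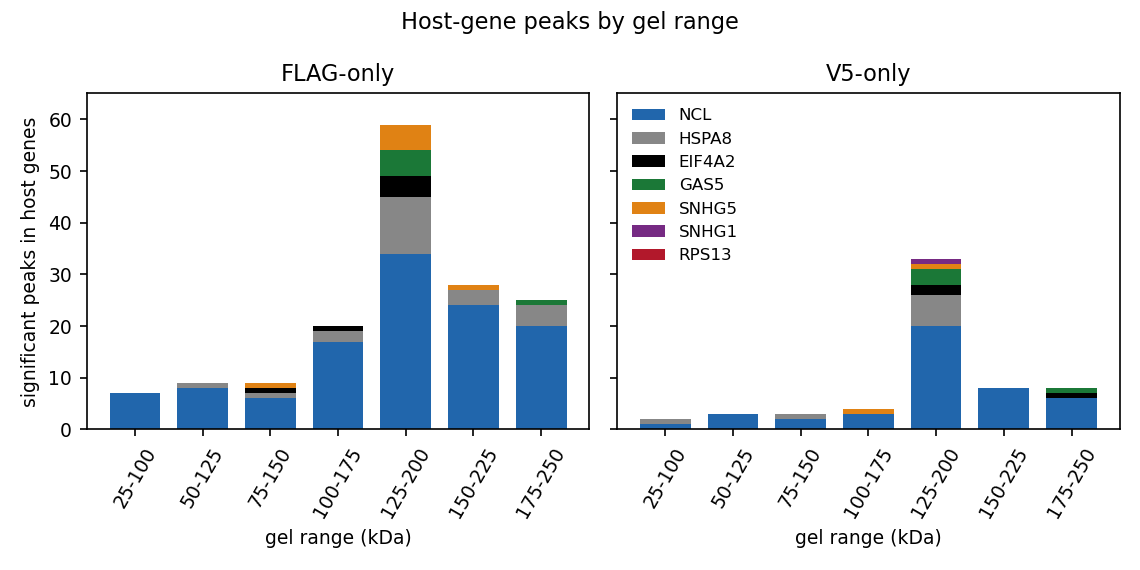
Significant peaks in host genes in FLAG-only (left) and V5-only (right) libraries by gel range (x axis, kDa, low to high), stacked by gene. The 125-200 kDa bars reach 59 in FLAG-only and 33 in V5-only, NCL makes up most of nearly every bar, and RPS13 adds nothing to any.

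The shares of called host peaks that were significant were also highest at 125-200 kDa. In FLAG-only they were 5.51%, 7.32%, 8.57%, 14.9%, 50.9%, 24.6% and 18.9% from the lowest to the highest range, against 1.21%, 3.75%, 6.7%, 6.43%, 22.1%, 11.5% and 6.86% of the whole lists. In V5-only they were 1.42%, 2.38%, 3.16%, 3.42%, 28.9%, 6.45% and 6.96%, against 0.555%, 1.1%, 2.69%, 1.92%, 11.5%, 3.1% and 1.86%. All 14 lists therefore had a higher significant share in the hosts than overall. Pooled, it was 157 of 851 in FLAG-only (18.4%), against 7.76%, and 61 of 832 in V5-only (7.33%), against 3.14%.

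The higher share lay mainly in NCL and also in HSPA8. The genes were selected on such counts and neighbouring peaks are not independent, so the intervals given here carry no test. Over the 14 tag-only lists 159 of 579 NCL peaks were significant, or 27.5% (interval 24.0% to 31.2%), against 5.44% of the pooled lists. HSPA8 had 30 of 233, or 12.9% (interval 9.17% to 17.8%), with 22 of 119 in FLAG-only (18.5%) and 8 of 114 in V5-only (7.02%), and exceeded its list in 9 of 14 libraries. The other 5 hosts had 29 of 871, or 3.33% (interval 2.33% to 4.74%), among them 0 of 141 in RPS13, 1 of 132 in SNHG1 and 9 of 119 in SNHG5. NCL also had 73.9% of the significant FLAG-only host peaks and 70.5% of the V5-only ones. NCL has the longest span of the 7 genes, 9747 nt. Its density of called peaks was 4.47 per kb and library in FLAG-only and 4.02 in V5-only, below GAS5 (4.68 and 5.21) and SNHG5 (4.72 and 5.13) and above the other 4 hosts (2.29 to 3.05 in FLAG-only, 2.10 to 3.09 in V5-only). Without the 125-200 kDa range of both antibodies, NCL held 105 significant peaks in place of 159, and all hosts 126 in place of 218.

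3 NCL regions recurred most. The region chr2:232324872-232325004 was significant in all 7 FLAG-only and in 5 V5-only libraries, with highest log2 folds between 3.21 and 5.21 in FLAG-only and between 2.76 and 4.64 in V5-only. The region chr2:232325188-232325275 was significant in 6 and 6, and chr2:232326510-232326729 in 6 and 2. None of the 11 RBP libraries was significant in any of these regions. Where RBP lists had a peak there, the highest fold per library was at most 2.57 in tagged and 2.71 in wild-type libraries in the first of them. NCL tag-only peaks had a median position 41.0% along the gene from its 5′ end, against 70.1% for its 19 significant RBP peaks.

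In HSPA8 the positions differed the other way. Its 30 significant tag-only peaks had a median position 83.2% along the gene, against 53.9% for its 17 RBP peaks, so tag-only peaks lay nearer the 5′ end in NCL and nearer the 3′ end in HSPA8. In EIF4A2 and SNHG5, tag-only peaks reached the very start of the gene in the 125-200 kDa range. EIF4A2 had a FLAG-only peak of 4.89 at 40 nt and a V5-only peak of 4.69 at 31 nt from the 5′ end, and SNHG5 had a FLAG-only peak of 3.69 at 1 nt. These were the 3 significant host peaks within 50 nt of a 5′ end, and no RBP library had one.

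Genes of the translation machinery often start with a run of pyrimidines, the terminal oligopyrimidine tract through which growth signals control their translation. The start of transcription in RefSeq is shown for the hosts with tag-only peaks at their 5′ end and for RPS13, 10 bases before it and 20 after, with the longest run of C or T in capitals.
RPS13: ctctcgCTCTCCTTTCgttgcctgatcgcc
SNHG5: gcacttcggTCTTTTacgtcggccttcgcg
EIF4A2: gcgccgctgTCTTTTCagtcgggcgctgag
The runs are 10, 6 and 7 bases long, and runs at least as long occur in 5.83%, 30.4% and 19.3% of the 35116 RefSeq start windows of this length. In the other hosts the longest run is 7 in SNHG1, 5 in NCL and 4 in GAS5 and HSPA8, against a median of 4 over all windows. RefSeq draws NCL, GAS5 and HSPA8 with other boundaries than the hg19 spans. Smaller differences in length were seen in SNHG1 (3908 nt against 3927 nt), EIF4A2 (6321 nt against 6329 nt) and RPS13 (3280 nt against 3282 nt). The windows of all these genes may therefore not lie at the starts of the hg19 spans. These shares count a run anywhere in the window, so they do not measure how common a tract at the start itself is. The RPS13 run was the least common of those shown, and RPS13 has no significant peak near its start.

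**Figure D4:**
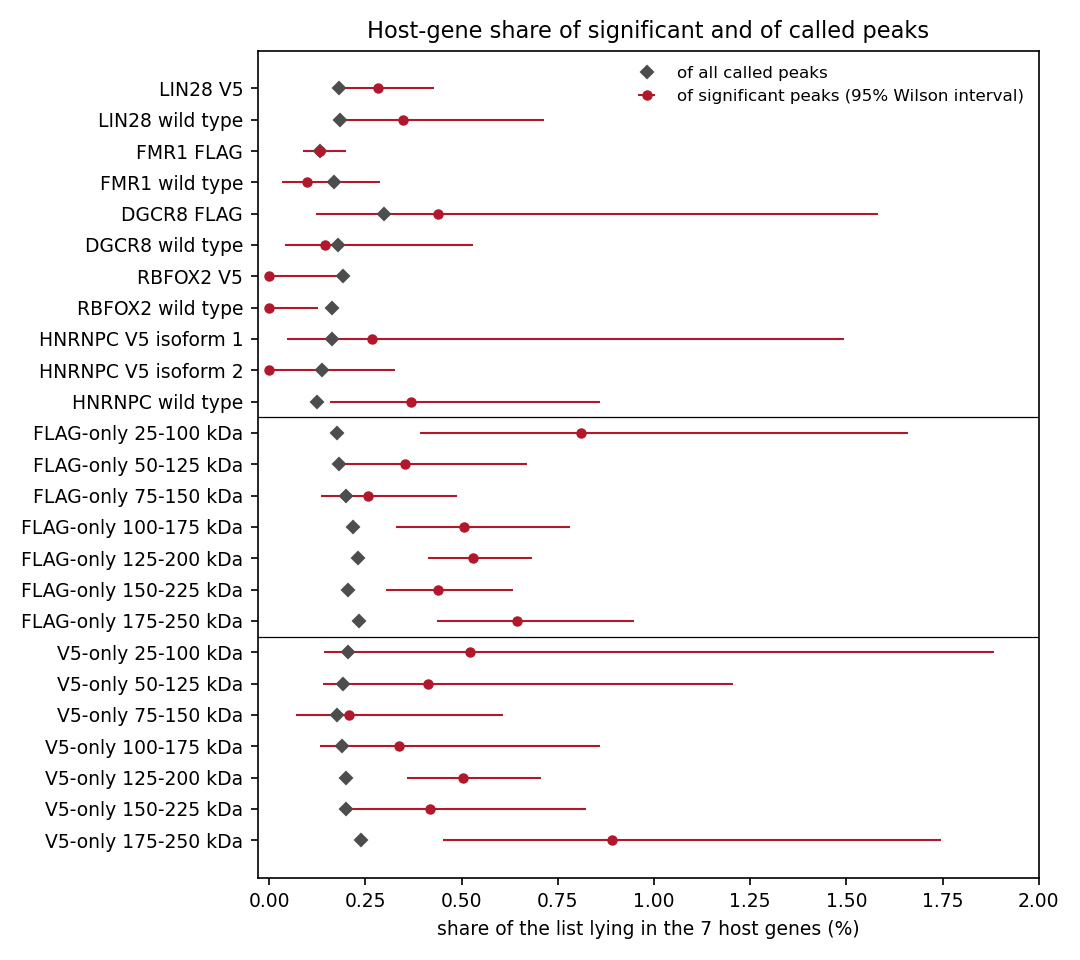
Share of each list lying in the 7 host genes (x axis, %), for significant peaks (circles with 95% Wilson intervals) and for all called peaks (diamonds), in 25 libraries. The called share runs from 0.124% to 0.299%, and the significant share exceeds it in all 14 tag-only and in 6 of 11 RBP libraries.

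Turned round, the hosts took 0.163% of all significant peaks in the RBP lists (interval 0.128% to 0.207%) and 0.481% in the tag-only lists (interval 0.421% to 0.548%), where they took 0.164% and 0.202% of the called peaks. Of the 65 significant RBP host peaks, 24 lay at a significant tag-only peak (36.9%, interval 26.2% to 49.1%), against 19.6% over the whole RBP lists. By gene this was 13 of 19 in NCL, 6 of 17 in HSPA8, 2 of 11 in EIF4A2, 1 of 4 in GAS5, 1 of 2 in SNHG5, the single peak of SNHG1 and 0 of 11 in RPS13. By library it was 7 of 22 in LIN28 V5 and 0 of 7 in LIN28 wild type, and 13 of 23 in FMR1 FLAG and 2 of 3 in FMR1 wild type. NCL thus held 13 of the 24 peaks. The genes were selected on peak numbers in these lists, so these shares and their interval carry no test.

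Host genes also held many called peaks with negative folds. Between 18.9% and 76.5% of called host peaks were negative in the 11 RBP lists, against 4.56% to 15.2% of the whole lists, and the median host fold lay below the list median in all 11. In the tag-only lists 5.17% to 28.6% of called host peaks were negative, against 0.763% to 10.3% of the whole lists. Only in V5-only 175-250 kDa was the host share lower, 6.09% against 7.12%. The median host fold lay below the list median in 9 of 14 tag-only lists. Single hosts differed. The SNHG1 and EIF4A2 medians lay below the list median in all 25 libraries, those of GAS5 and RPS13 in 23 each, and that of NCL lay above it in 13 of 14 tag-only libraries.

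Negative folds were more frequent inside short recurrent blocks than outside them in GAS5, for HNRNPC also in SNHG1, and in the 4 protein-coding hosts pooled. In those 4 hosts, however, the tag-only medians were higher inside. Positions under a called peak in at least 20 of the 25 lists, in runs of at least 10 nt, gave 9 blocks of 21 to 35 nt in GAS5 and 6 blocks of 20 to 48 nt in SNHG1. These blocks were defined after the peaks had been seen. In GAS5 and SNHG1 together, 112 of 167 RBP peaks inside blocks had a negative fold (67.1%), against 31 of 82 outside (37.8%). The median fold was lower inside in all 11 RBP libraries. In tag-only libraries 98 of 237 were negative inside (41.4%) and 20 of 178 outside (11.2%), and the median was lower inside in 12 of 14, the exceptions being the 175-250 kDa range of both antibodies. In GAS5 alone 58 of 98 RBP peaks were negative inside (59.2%), against 13 of 47 outside (27.7%), and in tag-only libraries 39 of 136 (28.7%), against 4 of 147 (2.72%). In SNHG1 alone 54 of 69 RBP peaks were negative inside (78.3%), against 18 of 35 outside (51.4%), but without HNRNPC these shares were 72.2% and 75.0%. In FLAG-only 30 of 50 SNHG1 peaks were negative inside and 6 of 13 outside, and in V5-only 29 of 51 and 10 of 18. The SNHG1 median was lower inside in 8 of 11 RBP libraries and in 5 of the 13 tag-only libraries that had SNHG1 peaks on both sides. In the 4 protein-coding hosts 133 of 298 RBP peaks were negative inside and 113 of 386 outside. The RBP median was lower inside in 9 of 11 libraries. In tag-only libraries 105 of 601 were negative inside and 61 of 548 outside, but the median was higher inside in all 14. Significant tag-only peaks numbered 116 inside and 82 outside. NCL held 17 of these blocks, and its tag-only block medians ran from 1.59 to 3.34.

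HNRNPC showed the deepest depletion. In GAS5 and SNHG1 its median log2 fold inside blocks was −2.66 in isoform 1, −4.33 in isoform 2 and −3.51 in wild type, against 0.12, 0.87 and 0.72 outside. All 15 of its peaks inside SNHG1 blocks were negative. The same held for all 50 of its peaks inside blocks of the 4 protein-coding hosts, and the lowest host folds, down to −7.72, were HNRNPC peaks in EIF4A2. The exception was a block at 2796 nt in GAS5, where all 3 HNRNPC libraries had positive folds. HNRNPC wild type had 2 adjoining significant peaks of 3.34 and 3.31 there. The highest folds of isoform 1 and isoform 2 there, 2.09 and 2.30, were below the limit. RBFOX2 was next, with −1.94 in V5 and −2.26 in wild type inside blocks, against 0.30 and 0.26 outside. Whether the blocks are exons or snoRNAs was not tested.

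**Figure D5:**
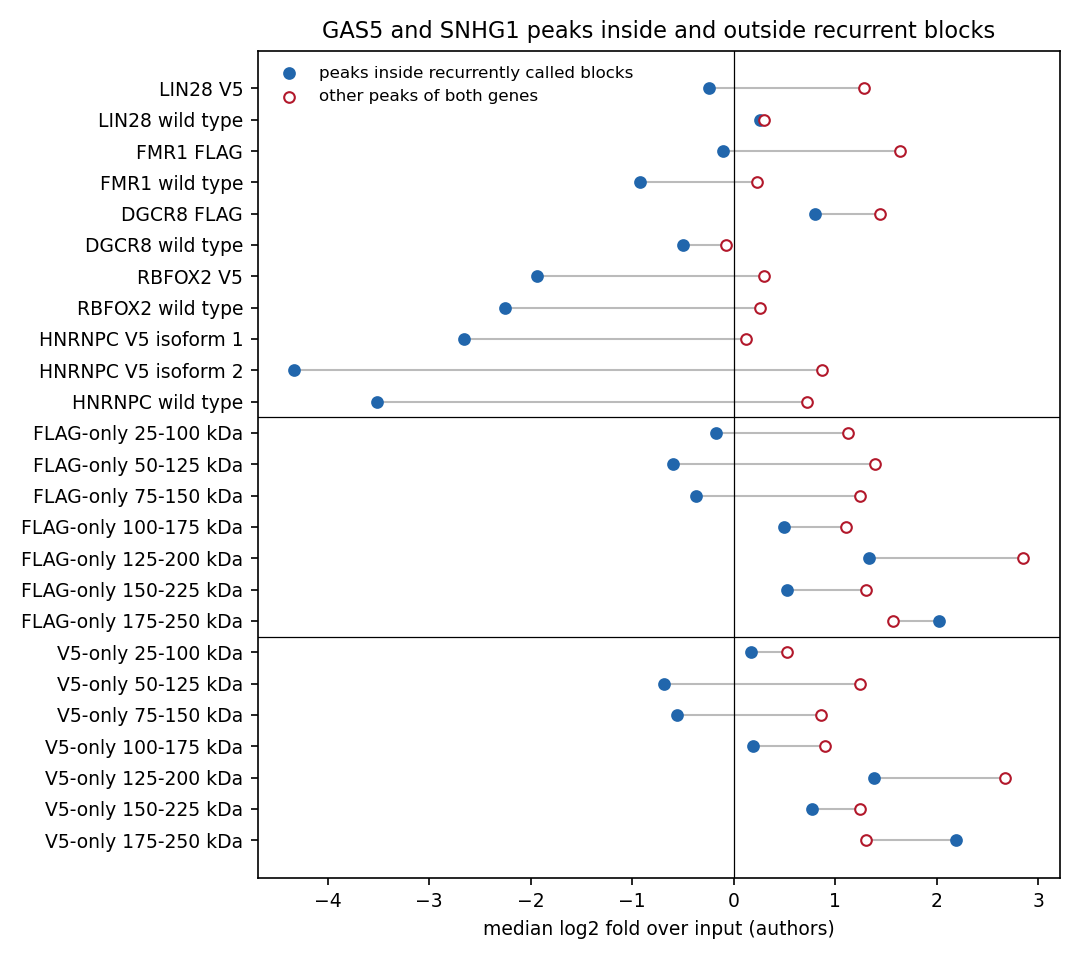
Median log2 fold over input (x axis) of GAS5 and SNHG1 peaks inside recurrently called blocks (filled) and of the other peaks of both genes (open) in 25 libraries. Filled points lie left of open ones in 23 libraries, with the widest gaps in the 3 HNRNPC libraries, where the filled points lie between −4.33 and −2.66.

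Across the 25 libraries the hosts had few patterns in common. With the number of significant peaks of a gene divided by those of its list, the most alike pair was GAS5 and SNHG1 (Spearman's rho 0.58), followed by GAS5 and EIF4A2 (0.44) and SNHG5 and HSPA8 (0.31), and the least alike was RPS13 and NCL (−0.42). SNHG1 had significant peaks in 2 libraries, so the first value rests on those. The 25 libraries share antibodies, inputs and sparse counts, and these values are descriptions without a test.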

How the data were processed

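The 25 peak lists were deposited by the authors without a header, 1 list per immunoprecipitation library, so peaks had been called per library. Positions are in hg19, per the submitters' processing notes, where SAMtools, Picard, GATK, STAR and cutadapt are listed without versions. Those notes name no peak caller. The deposited −log10 p runs from 0 to a cap of 400, with a second ceiling at 15.7 that holds 3171 significant peaks, and the deposited log2 fold sets a peak against the input of matched size. Neither was recomputed, and each served for ranking, filtering and description inside its own list. The 18 input samples entered only through that fold.

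Starts were made 1-based. Peaks were assigned to genes and lists compared by same-strand overlap of at least 1 nt, in Python 3.11.15 with pandas 2.3.3 and scipy 1.17.1. Overlap code was tested on simulated peaks. Wilson intervals are at 95%. With 1 library per group no test between groups was made. The genes and lists were chosen with earlier results of these data known. All 7 genes are named, each with its strongest RBP peak. Of the regions significant in the most libraries, 3 are described for NCL, and those of the other hosts are not all given. Other snoRNA hosts were not analysed here. Names and sequences came from RefSeq GRCh38.p14 and GENCODE v29.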

Additional observations from a re-analysis of the deposited data

Results flagged for a closer look

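In the tag-only libraries the 125-200 kDa range had the highest count by a gap above Dixon's 95% critical value for the values listed here. The criterion served as a screen and is no test. Among independent values chance passes about 1 set in 20, but these ranges overlap and are not replicates, the host total contains the counts of its genes, and the genes were selected on such counts, so the number of values that passed carries no meaning. In FLAG-only it held 59 significant host peaks, 5 in GAS5, 5 in SNHG5, 11 in HSPA8 and 4 in EIF4A2. In V5-only it held 33 significant host peaks, 3 in GAS5, 1 in SNHG1, 20 in NCL and 6 in HSPA8. The whole lists also had the most significant peaks in that range, 11119 significant peaks in FLAG-only and 6562 in V5-only, and the host share of significant peaks, 0.531% and 0.503%, did not stand apart. The part of the number of significant peaks per list in these counts was not tested.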

How the results depend on the processing

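Of 47 alternative values, 29 were classed as unchanged and 18 as moved. For shares, unchanged meant inside the Wilson interval of the main value, which is wide for small counts. Over the 5 pairs of wild-type and tagged peaks, 58.8% of 17 wild-type host peaks were overlapped by a tagged peak. The 77.3% of 44 at a log2 fold limit of 2, and the 41.2% of 17 at a 50% overlap, were classed as unchanged. Counts and shares cannot change sign. The correlations between hosts could, and none did. At a looser log2 fold limit of 2, significant host peaks numbered 146 in RBP libraries (65 in the main count) and 611 in tag-only libraries (218), 410 in NCL (159) and 72 in GAS5 with SNHG1 (16). Host shares of significant peaks were then 0.231% in RBP and 0.56% in tag-only libraries, and 65.8% of RBP host peaks lay at tag-only peaks. The share of the whole RBP lists at tag-only peaks was not computed at this limit, so the 65.8% has no background beside it. At a stricter −log10 p limit of 5, shares were 0.227% in RBP and 0.803% in tag-only libraries, so the RBP share, 0.163% in the main count, lay above the called share of 0.164% under both limits, and GAS5 with SNHG1 held 10 peaks. SNHG1 then had none, so its likeness with GAS5 had no value. Merging adjoining peaks gave 142 in tag-only libraries, 89 in NCL and 4 for LIN28 in RPS13 (9). Taking at most 1000 peaks per list gave 0.388% in tag-only libraries. Without the 125-200 kDa range, chosen for the counts after seeing the data, tag-only libraries held 126 host peaks and NCL 105. Requiring 50% of both peaks gave 57.1% for LIN28 wild-type host peaks in LIN28 V5 and 21.5% for RBP host peaks at tag-only peaks. Whole-list shares were not computed for this overlap either. With blocks of 18 or 22 lists in place of 20, also chosen after seeing the data, the negative shares were classed as unchanged. RPS13 kept its sites, gap and strongest fold under both thresholds. No paired analysis was possible because each group has 1 library. Counting error, with depth unknown, limits every share.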
